A study of Rattus norvegicus with 6 samples.

Results

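Body fluid balance is read in the brain by genes for angiotensin, sodium, apelin, calcitonin family and neuropeptide Y signals, and 8 of them are described here across the walls of the third ventricle and the pineal gland of the rat. The set held the angiotensin receptor gene Agtr1a, the converting enzyme gene Ace, the sodium channel gene Scn7a, the apelin receptor gene Aplnr, the receptor partner genes Ramp1, Ramp2 and Ramp3, and the neuropeptide Y receptor gene Npy1r. The genes were taken by symbol, with every probe whose annotation listed 1 of those symbols alone. They were chosen with earlier results of these data known, so counts of the 8 beside shares of all genes describe this set alone. All 8 were found among 12167 named genes, with 14 of 16796 named probes. Agtr1a, Scn7a, Ramp2 and Ramp3 had 1 probe each, Ace and Ramp1 had 2, and Aplnr and Npy1r had 3.

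Circumventricular organs such as the subfornical organ have leaky capillaries, so circulating peptides and salt reach their cells directly. Angiotensin II, released in its final step by the converting enzyme, acts on the subfornical organ through the type 1 receptor and drives thirst and vasopressin release. The channel encoded by Scn7a, also called Nax, opens to extracellular sodium. RAMP proteins are single-pass membrane partners that bind the calcitonin receptor and its relative Calcrl and set whether the pair answers to calcitonin gene-related peptide, adrenomedullin or amylin.

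The tissues came from normal adult male Sprague-Dawley rats with no treatment or transgene in the labels, and each was read on 1-colour arrays labelled with Cy5. There were 6 arrays in 5 tissues. The pineal gland had 2 arrays, and the subfornical organ, the subcommissural organ, the third ventricle ependyma and total brain had 1 each. Tissues other than total brain were taken by laser microdissection, the ependyma at a distance from both organs of the ventricle wall, and the subfornical, subcommissural and ependyma samples were each a pool of 2. Total brain was a pool that the study used as its reference. Nothing in the labels ties the pineal gland pair to different rats, so the spread of the pair may be technical, and it is the basis of each p-value below.

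Values are intensities in arbitrary units on a linear scale, with array medians between 1.04 and 1.07. The number of arrays limits their precision, and no detection call was used. Values under 0.142, the pooled 5th percentile, were set to it before log2 was taken, and a comparison used a gene where its higher side reached 1.05, the pooled median, which is what measured means below. A fold whose lower side lay under 1.05 is given as a bound against 1.05. A low intensity says little by itself, since Snap25, a synaptic gene of all neurons, was between 0.491 and 0.892 on every array, total brain included. The tissue labels were checked against defining genes. Tph1 and Asmt of melatonin synthesis were at 352 or more and 72.4 or more on the pineal gland arrays, and at most 1.91 and 0.747 on the other arrays. Pax6, a factor of the subcommissural organ, was at 26.7 there and at most 5.18 elsewhere, but Spon1 of the same list was at 0.443 there, its lowest value, against 8.69 in total brain. Of the 4 genes of that list on the array, 3 were at least 4-fold higher in the subcommissural organ than in total brain and 1 was lower. Over all genes the shares were 8.76% and 14.9%. Tekt1 of motile cilia was at 233 in the ependyma, 192 in the subcommissural organ, 47.1 in the subfornical organ and 6.33 in total brain. No marker list for the subfornical organ was used. The first pineal gland array was the brighter of the pair by a median log2 difference of 0.45 among genes above the 75th percentile, where 95% of genes differed by less than 2.38-fold. That limit was 3.08-fold between the median and the 75th percentile, and 4.67-fold under the median. These limits are used below as the yardstick for neighbouring tissues.

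**Figure D1:**
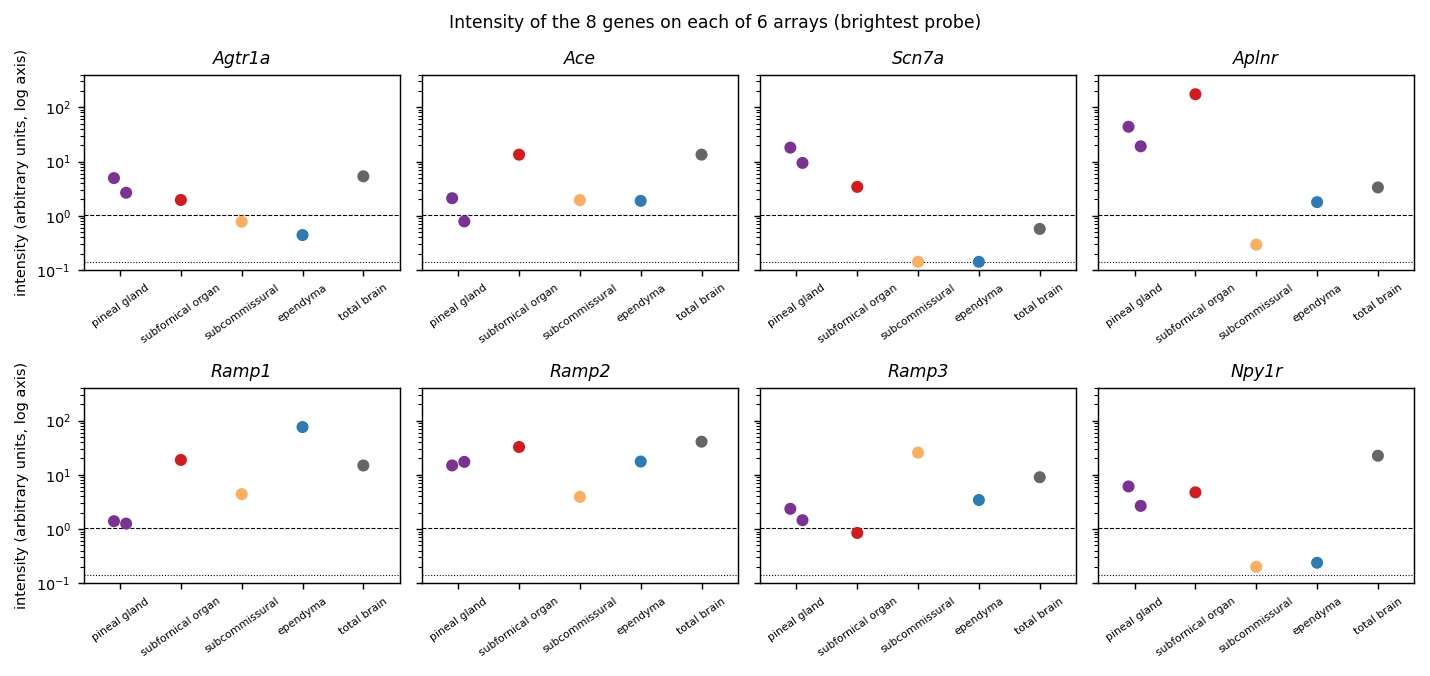
Intensity of each of the 8 genes on each array (log axis, arbitrary units, brightest probe), with 2 points for the pineal gland and 1 for each other tissue. The dashed line marks the pooled median of 1.05 and the dotted line the floor of 0.142, at which lower values are drawn; Aplnr is highest in the subfornical organ at 173, Ramp1 in the ependyma at 75.8 and Ramp3 in the subcommissural organ at 25.6.

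Agtr1a was at 4.95 and 2.66 on the pineal gland arrays, 1.96 in the subfornical organ, 0.779 in the subcommissural organ, 0.442 in the ependyma and 5.33 in total brain. Total brain and the first pineal gland array were the highest, and the ependyma and the subcommissural organ lay under the pooled median. No step between neighbours in this order passed the spread of the pineal gland pair. The receptor gene did not pass the test in pineal gland against total brain, with a log2 difference of -0.56 (95% interval -1.98 to 0.87, limma adjusted p = 0.66), nor in pineal gland against subfornical organ, with 0.89 (-0.54 to 2.31, limma adjusted p = 0.47). By the first array alone the former was -0.11, and by the second alone -1.01. In the subfornical organ it was 2.73-fold lower than in total brain and at least 1.86-fold higher than in the ependyma, which the values before the bound put at a log2 difference of 2.15. Its nearest profiles were Lurap1l at a root mean square difference of 0.16 on the log2 scale over the 6 arrays, after each profile was centred, Dgat2, a triglyceride synthesis gene, at 0.28, and Tmem41b at 0.34.

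Ace, whose enzyme forms angiotensin II, was at 2.11 and 0.789 in the pineal gland, 13.4 in the subfornical organ, 1.94 in the subcommissural organ, 1.88 in the ependyma and 13.4 in total brain. The subfornical organ and total brain stood together above all other arrays, and the step from the subfornical to the subcommissural organ, 6.89-fold, was larger than the pair's spread. Ace was lower in the pineal gland than in total brain by 10.4-fold (log2 difference -3.38, SE 0.73, limma adjusted p = 3.9e-05), with -2.67 by the first array alone and -4.09 by the second. That call did not hold after quantile normalization, at an adjusted p of 0.073 by limma. Against the subfornical organ Ace was also 10.4-fold lower in the pineal gland (limma adjusted p = 5.6e-05), and this call was lost after quantile normalization (0.061) and without the filter (0.063), both by limma. The second Ace probe was at 0.520 and -0.0400 in the pineal gland, 0.745 in the subfornical organ, 0.349 in the subcommissural organ, 0.409 in the ependyma and 4.03 in total brain. It exceeded the pooled median in total brain alone, so this probe did not show the subfornical organ at the level of total brain. With both probes averaged, the subfornical organ was lower than total brain by a log2 difference of -1.22 and higher than the ependyma by 1.85, short of 4-fold.

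Markers of oligodendrocytes moved with the brightest Ace probe across the arrays. The second probe, at 0.745 in the subfornical organ against 4.03 in total brain, did not share their high subfornical level. The summed level of the 8 listed genes on the array was 68.2 and 67.4 in the pineal gland, 1626 in the subfornical organ, 238 in the subcommissural organ, 294 in the ependyma and 1516 in total brain. All 8 were at least 4-fold higher in the subfornical organ than in the ependyma, beside 6.88% of all genes. Mog was at 327 against 51.0 and Mbp at 51.5 against 7.15. The gene nearest to Ace in profile was Ermn, a cytoskeletal gene of oligodendrocytes, at a root mean square difference of 0.28. Pip4k2a and Enpp4 followed, at 0.40 each. The part of oligodendrocyte RNA in the Ace values was not tested. In dissected tissue as here, fewer cells of a type and less RNA per cell cannot be told apart.

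**Figure D2:**
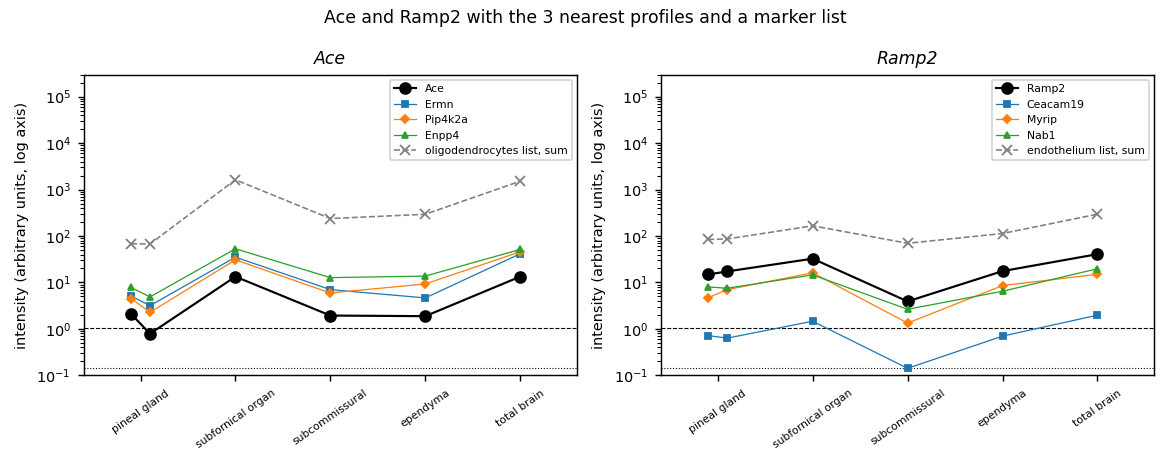
Intensity (log axis, arbitrary units) on each array of Ace (left) and Ramp2 (right), black, with the 3 genes nearest in profile and, in grey, the summed level of a marker list. The brightest Ace probe, shown here, and the oligodendrocyte list are both high in the subfornical organ and total brain. Ramp2 and the endothelium list are both lowest in the subcommissural organ, at 3.91 and 69.8.

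Of the wider angiotensin list, 11 of 14 genes were on the array and 9 were measured in pineal gland against total brain, where 2 rose and 3 fell, Ace included, with a median log2 difference of -0.97 against -0.45 over all 9077 genes, of which 7.72% were called higher and 16.3% lower. Agt, the angiotensinogen precursor, was at 0.703 and 0.199 in the pineal gland, 2.52 in the subfornical organ, 0.225 in the subcommissural organ, 1.36 in the ependyma and 2.24 in total brain. It fell in the pineal gland, at least 2.13-fold (limma adjusted p = 0.0026). That bound was short of 3.54-fold, the smallest fold called, so the call drew on values under the pooled median. Among the peptidases that break down angiotensins, Anpep, aminopeptidase N, was at 50.1 and 28.8 in the pineal gland against 4.29 in total brain, an 8.85-fold rise (limma adjusted p = 0.00015). Mme, neprilysin, was at 0.558 and 0.491 in the pineal gland, 0.528 in the subfornical organ, 0.860 in the subcommissural organ and 2.97 in the ependyma against 18.8 in total brain. Total brain stood above every dissected tissue in Mme, at least 17.9-fold above both the pineal gland and the subfornical organ. Agtrap, a protein that binds the type 1 receptor and takes it into the cell, ran the other way, with 0.513 in total brain and between 2.87 and 5.79 on the other 5 arrays. In the subfornical organ it was at least 4.53-fold higher than in total brain. Of 9 genes measured there, Agtrap alone was at least 4-fold higher and Mme alone lower, beside 7.23% and 9.76% of all genes. In the pineal gland the bound for the rise of Agtrap was 2.96-fold, under the smallest fold called. Agtr1b, the second type 1 receptor gene of rodents, did not reach the pooled median on any array, with a highest value of 0.770.

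Scn7a was at 18.0 and 9.42 in the pineal gland, 3.41 in the subfornical organ, 0.140 in the subcommissural organ, -0.0538 in the ependyma and 0.573 in total brain. Both pineal gland arrays lay above the subfornical organ, which in turn lay above the 3 other tissues, all of them under the pooled median. The steps from pineal gland to subfornical organ, 3.82-fold, and from there to total brain, at least 3.25-fold and 5.95-fold before the bound, were larger than the pair's spread. Scn7a rose in the pineal gland against total brain by a log2 difference of 4.51 (SE 0.73, limma adjusted p = 1.4e-08), at least 12.4-fold, and the call held under every alternative that gave a test. Against the subfornical organ it rose by 1.93 (limma adjusted p = 0.039), which no longer passed after quantile normalization (0.061), without the filter (0.18) or with an intensity trend (0.075), all by limma. In the subfornical organ Scn7a was at least 3.25-fold higher than in the ependyma and the subcommissural organ, where it lay at the floor.

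The nearest profiles to Scn7a were those of Ccl19, a chemokine gene, at a root mean square difference of 0.36, Cyp27a1, a sterol hydroxylase gene, at 0.58, and Cfd, the gene of complement factor D, at 0.60. Ccl19 was at 96.7 and 89.6 in the pineal gland, 22.0 in the subfornical organ and at most 6.33 elsewhere. Scn7a is also known from peripheral nerve. Of the 5 listed Schwann cell genes on the array 3 were measured in pineal gland against total brain. Of these 1 was lower and none higher, beside 16.3% and 7.72% of all genes. Their summed level was 29.8 and 18.3 in the pineal gland, 117 in the subfornical organ and 70.6 in total brain. The part of peripheral nerve RNA in the Scn7a values was not tested. Among 9 sodium and osmotic genes on the array, 4 were measured in pineal gland against total brain, with Scn7a higher and Casr lower, beside 7.72% and 16.3% of all genes. Casr, the calcium-sensing receptor gene, was at 0.568 and 0.461 in the pineal gland, 6.42 in the subfornical organ, 2.95 in the subcommissural organ, 5.36 in the ependyma and 3.93 in total brain. The osmotic channel genes Trpv1 and Trpv2 and the sodium exchanger gene Slc9a4 stayed under the pooled median on every array. Scnn1a, a subunit of the epithelial sodium channel, was at 2.42 in the subfornical organ and at most 0.767 elsewhere. Scnn1b was counted as lower in the subfornical organ than in total brain, but at 0.105 against 1.09 its bound was 1.04-fold.

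The 250 bases before the start of Scn7a, in which letters in capitals mark the GC box motif GGGCGG on either strand, are shown because this gene had the largest rise of the 8 in the pineal gland. The sequence is from RefSeq on build GRCr8, chr3:71846285-71846534, minus strand:
Scn7a: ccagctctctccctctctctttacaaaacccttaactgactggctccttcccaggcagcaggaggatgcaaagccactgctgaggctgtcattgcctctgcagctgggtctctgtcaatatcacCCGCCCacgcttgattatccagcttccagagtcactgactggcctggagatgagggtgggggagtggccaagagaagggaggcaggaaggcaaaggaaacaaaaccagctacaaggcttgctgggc

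It held 1 GC box, a motif found in 30.5% of 33469 windows of the same length. The core TAATCC bound by the pineal factors Crx and Otx2, the cAMP response element TGACGTCA and the TATA box TATAAA, searched on both strands, were not among its letters. They occur in 6.34%, 1.59% and 12.9% of those windows. A match or its lack is a description of these letters alone.

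Aplnr was at 43.7 and 19.0 in the pineal gland, 173 in the subfornical organ, 0.293 in the subcommissural organ, 1.78 in the ependyma and 3.33 in total brain. The subfornical organ was highest, both pineal gland arrays came next, and the other tissues lay far under them. The steps from subfornical organ to pineal gland, 6.01-fold, and from pineal gland to total brain, 8.67-fold, were larger than the pair's spread, while total brain and the ependyma, 1.87-fold apart, did not differ beyond it. In the subfornical organ Aplnr was 52.1-fold higher than in total brain, 97.3-fold higher than in the ependyma and at least 165-fold higher than in the subcommissural organ. It rose in the pineal gland against total brain by a log2 difference of 3.12 (SE 0.73, limma adjusted p = 0.00017), with 3.71 by the first array alone and 2.52 by the second. Against the subfornical organ it fell by 2.59 (SE 0.73, limma adjusted p = 0.0031), with -1.99 by the first array alone and -3.19 by the second. Without the filter the limma adjusted p was 0.054 and 0.11, and after quantile normalization the second was 0.071. With the 3 probes averaged both calls were lost, at limma adjusted p of 0.46 and 0.47.

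The other 2 Aplnr probes stayed under the pooled median on all 6 arrays. One of them was highest in the subfornical organ at 0.956, and the other was highest in total brain at 0.618. The Aplnr result therefore rests on 1 probe. With the 3 probes averaged on the log2 scale, the difference was 1.66 in subfornical organ against total brain, under 4-fold, 2.32 against the ependyma and 3.33 against the subcommissural organ, where the 1 probe gave 9.21.

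**Figure D3:**
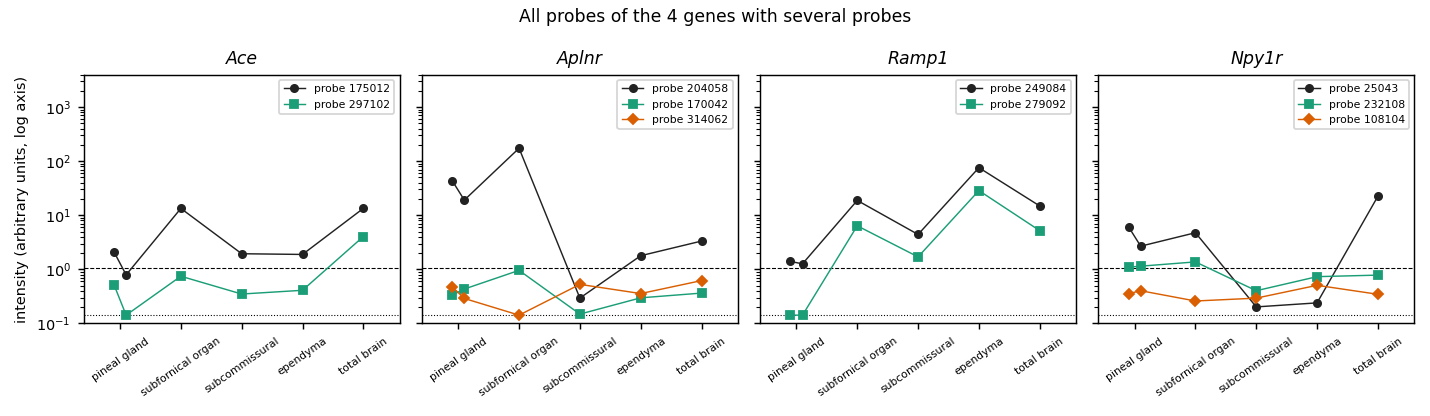
Intensity (log axis, arbitrary units) of every probe of Ace, Aplnr, Ramp1 and Npy1r on each array, 1 line a probe. Both Ramp1 probes run in parallel; the second Ace probe is high in total brain alone, and the other probes of Aplnr stay under the dashed line at 1.05.

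Apln, the gene of the ligand apelin, was at 4.99 and 2.35 in the pineal gland, 54.7 in the subfornical organ, 6.77 in the subcommissural organ, 19.8 in the ependyma and 48.7 in total brain. The subfornical organ and total brain were 1.12-fold apart in the ligand, within the pair's spread. In the pineal gland against total brain Apln fell by 14.2-fold (limma adjusted p = 2.2e-06) while Aplnr rose. Against the subfornical organ both fell, Apln by 16.0-fold (limma adjusted p = 1.0e-06). The nearest profiles to Aplnr lay farther off than for any other of the 8, with Cldn19, a claudin gene, at a root mean square difference of 0.89, Atp6v0a4, a proton pump subunit gene, at 0.91, and the small heat shock gene Hspb2 at 0.94. Aplnr also had the largest span of the 8 over the arrays, 9.21 on the log2 scale, and such distances grow with the span. Endothelial cells are a known site of Aplnr, and the 11 endothelial genes on the array summed to 84.5 and 86.4 in the pineal gland, 166 in the subfornical organ, 69.8 in the subcommissural organ, 113 in the ependyma and 295 in total brain. The part of endothelial RNA in the Aplnr values was not tested. In subfornical organ against total brain 9 genes of the endothelial list were measured. Of them 1 was at least 4-fold higher and 1 lower, beside 7.23% and 9.76% of all genes. Of its defining genes, Plvap, which marks leaky capillaries, was at 17.7 and 15.6 in the pineal gland and 3.36 in the subfornical organ against 13.0 in total brain, and Pecam1 was at 1.65 in the subfornical organ against 6.61. Emcn, at 1.66 against 0.394, and Flt1, at 3.63 against 2.91, ran the other way.

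Ramp1 was highest in the ependyma and Ramp3 in the subcommissural organ, while Ramp2 had no tissue above the others beyond the pair's spread. Ramp1, whose product turns Calcrl into the receptor of calcitonin gene-related peptide, was at 1.40 and 1.26 in the pineal gland, 18.8 in the subfornical organ, 4.41 in the subcommissural organ, 75.8 in the ependyma and 14.8 in total brain. The ependyma was highest, 4.03-fold above the subfornical organ and 5.11-fold above total brain, and both pineal gland arrays were lowest. The subfornical organ and total brain, 1.27-fold apart, did not differ beyond the pair's spread. Ramp1 fell in the pineal gland against total brain by 3.48 on the log2 scale (SE 0.73, limma adjusted p = 2.1e-05) and against the subfornical organ by 3.82 (limma adjusted p = 3.4e-06), and both calls held under every alternative that gave a test. The second probe repeated the order of the other tissues, at 28.6 in the ependyma, 6.37 in the subfornical organ, 5.19 in total brain, 1.70 in the subcommissural organ, and 0.0878 and -0.0237 in the pineal gland. Over the 6 arrays the 2 probes correlated with r = 0.99 as a description of probes that share the same RNA.

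Motile cilia genes had a summed level of 1481 in the ependyma and 1289 in the subcommissural organ, and Ramp1 was at 75.8 and 4.41. The part of ciliated or other cell types' RNA in the Ramp1 values was not tested. The nearest profile to Ramp1 was that of C8h11orf97 at a root mean square difference of 0.35, followed by Slc25a34, a mitochondrial carrier gene, at 0.45 and Galnt6, which starts mucin-type sugar chains, at 0.59.

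Ramp2, whose product makes Calcrl an adrenomedullin receptor, was at 14.9 and 17.3 in the pineal gland, 32.5 in the subfornical organ, 3.91 in the subcommissural organ, 17.6 in the ependyma and 40.7 in total brain. It was above the 75th percentile on every array but that of the subcommissural organ, and the last step down to that organ, 4.10-fold, was the only one beyond the pair's spread. Pineal gland against total brain gave a log2 difference of -1.34 (95% interval -2.77 to 0.08, limma adjusted p = 0.18), which did not pass. Ramp2 was 10.4-fold lower in the subcommissural organ than in total brain and 8.31-fold lower than in the subfornical organ. The summed endothelium list, given above, was also lowest in the subcommissural organ and highest in total brain. Of its 9 measured genes 6 were at least 4-fold lower in the former, beside 14.9% of all genes. Cldn5 made up most of both sums, at 50.0 of 69.8 and 167 of 295. Kdr, at 1.39 against 0.618 in total brain, and Emcn, at 0.697 against 0.394, ran the other way. The part of endothelial RNA in Ramp2 was not tested. Its nearest profile was that of Ceacam19 at 0.18, a gene that reached the pooled median in the subfornical organ and total brain alone. Within 0.5 lay 82 genes, more than for any other of the 8. Ramp2 also had the smallest span of the 8 over the arrays, 3.38 on the log2 scale.

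Ramp3, the third partner, which also forms adrenomedullin and amylin receptors, was at 2.36 and 1.46 in the pineal gland, 0.848 in the subfornical organ, 25.6 in the subcommissural organ, 3.43 in the ependyma and 9.02 in total brain. The subcommissural organ was highest and the subfornical organ lowest, at least 24.4-fold apart. The step from subcommissural organ to total brain, 2.84-fold, was larger than the pair's spread, while the steps from there down through the ependyma, the pineal gland and the subfornical organ were not. Ramp3 fell in the pineal gland against total brain by 2.28 on the log2 scale (SE 0.73, limma adjusted p = 0.0098), with -1.93 by the first array alone and -2.63 by the second. The call did not hold after quantile normalization (0.094) or without the filter (0.098), both by limma. Its nearest profiles were Rnd1 at 0.31, the phosphatase gene Ptprr at 0.45 and Lmx1a, a factor of the embryonic roof plate, at 0.56. Lmx1a was at 2.21 in the subcommissural organ and at most 0.716 elsewhere.

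The 250 bases before Ramp1 and Ramp3 are given side by side, since these related genes peaked in the ependyma and in the subcommissural organ. Capitals again mark GGGCGG on either strand, and both are from RefSeq on build GRCr8, plus strand, at chr9:99212866-99213115 for Ramp1 and chr14:85741064-85741313 for Ramp3:
Ramp1: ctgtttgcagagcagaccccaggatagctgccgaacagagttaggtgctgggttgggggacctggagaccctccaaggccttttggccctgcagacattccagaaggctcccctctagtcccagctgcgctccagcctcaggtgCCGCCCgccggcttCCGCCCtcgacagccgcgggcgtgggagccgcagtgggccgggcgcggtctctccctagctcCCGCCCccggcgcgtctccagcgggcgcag
Ramp3: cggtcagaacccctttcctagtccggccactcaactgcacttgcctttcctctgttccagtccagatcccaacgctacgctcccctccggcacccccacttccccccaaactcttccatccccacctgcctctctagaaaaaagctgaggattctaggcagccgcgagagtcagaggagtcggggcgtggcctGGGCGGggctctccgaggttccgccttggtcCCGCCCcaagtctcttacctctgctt

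Ramp1 held 3 GC boxes and Ramp3 held 2, against 30.5% of windows with any. Neither held the other motifs given for Scn7a, nor the CCAAT box, whose letters are in 34% of windows. The G and C content was 70% and 61.6%, with a median of 51.2% over all windows.

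Receptors and ligands that the RAMP proteins serve were mostly dim. Calcrl was not analysed here. Calcr, the calcitonin receptor gene, reached at most 1.02, and Adm, the adrenomedullin gene, at most 0.694, so neither counted as measured. Calca, the precursor gene of calcitonin and its gene-related peptide, was highest in the subcommissural organ at 1.67. Calcb, which encodes the second such peptide, was at 0.837 and 0.469 in the pineal gland, 3.02 in the subfornical organ, 1.28 in the subcommissural organ, 1.35 in the ependyma and 6.73 in total brain. Calcb fell in the pineal gland, at least 6.40-fold (limma adjusted p = 2.9e-05). Gpr182, a receptor gene once linked to adrenomedullin, was at 0.518 and 1.08 in the pineal gland, 3.89 in the subfornical organ, 0.507 in the subcommissural organ, 0.267 in the ependyma and 3.64 in total brain. Its fall in the pineal gland against total brain was called with a bound of 3.46-fold, under the smallest fold called, 3.54. Of 11 genes of this family on the array, 7 were measured in pineal gland against total brain, and 4 of them fell, Ramp1 and Ramp3 among them, and none rose. Their median was -2.28 against -0.45 over all genes, of which 16.3% were called lower and 7.72% higher. In subfornical organ against total brain 1 of 7, Ramp3, was at least 4-fold lower, and none was higher. Over all genes the shares in that comparison were 9.76% and 7.23%.

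**Figure D4:**
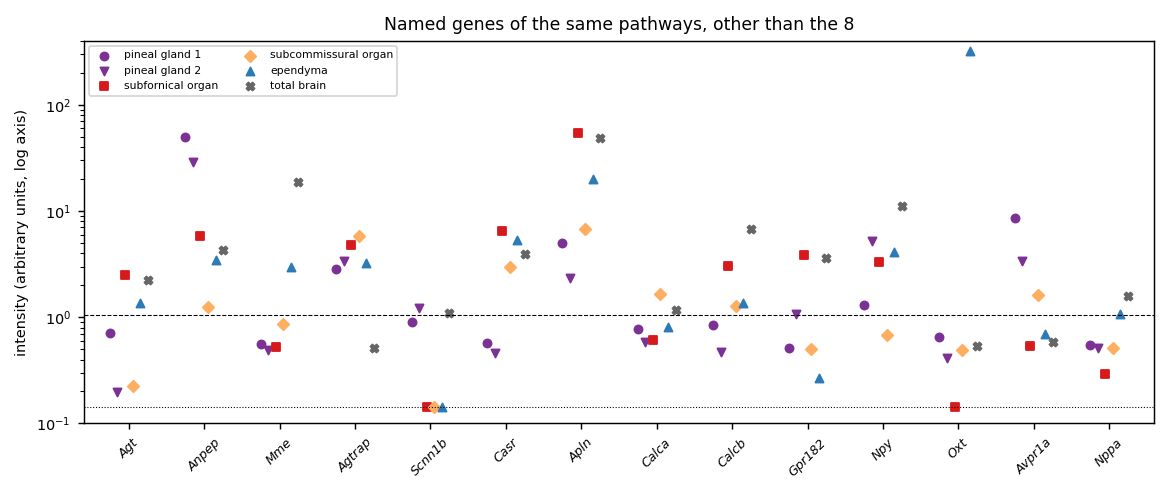
Intensity (log axis, arbitrary units) on each of the 6 arrays of the 14 other genes of the same pathways that were named by rule and reached the pooled median of 1.05 (dashed line) on any array. Scnn1a, named after its values were seen, is not drawn. Anpep and Avpr1a are highest in the pineal gland, Mme in total brain and Oxt in the ependyma.

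Npy1r, which couples neuropeptide Y to feeding, drinking and vessel tone, was at 6.11 and 2.68 in the pineal gland, 4.75 in the subfornical organ, 0.202 in the subcommissural organ, 0.239 in the ependyma and 22.5 in total brain. Total brain was highest, the subfornical organ lay between the 2 pineal gland arrays, and both ciliated linings were under the pooled median. Npy1r fell in the pineal gland against total brain by 2.47 on the log2 scale (SE 0.73, limma adjusted p = 0.0043), with -1.88 by the first array alone and -3.07 by the second. The call was lost after quantile normalization (0.11), without the filter (0.10) and with the 3 probes averaged (0.61), all by limma. It was 4.73-fold lower in the subfornical organ than in total brain, and at least 21.4-fold lower in the subcommissural organ and in the ependyma. After quantile normalization the subfornical difference was -1.95 on the log2 scale, just under 4-fold, and with the probes averaged it was -0.61. Averaging the probes also moved the differences in the subcommissural organ and the ependyma from -6.80 and -6.55 to -2.66 and -2.03. Pineal gland and subfornical organ were 1.17-fold apart (log2 difference -0.23, 95% interval -1.66 to 1.19, limma adjusted p = 0.89).

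The other Npy1r probes did not repeat this. One was between 0.402 and 1.37, highest in the subfornical organ, and the other stayed between 0.259 and 0.506. The Npy1r result therefore also rests on 1 probe. The neuron marker list was also highest in total brain by its sum over 10 genes on the array, 963. That sum was 88.3 in the subfornical organ, 68.8 in the subcommissural organ, 172 in the ependyma, and 136 and 88.7 in the pineal gland. In subfornical organ against total brain 9 of these genes were measured and 9 were at least 4-fold lower, beside 9.76% of all genes. In pineal gland against total brain 6 of 9 were lower and 1 higher, beside 16.3% and 7.72%. Slc17a7 ran the other way, at 14.0 and 12.3 in the pineal gland against 3.13 in total brain. The part of neuronal RNA in Npy1r was not tested. The nearest profile was that of Mybpc1 at 0.56, then the potassium channel subunit gene Kcne4 at 0.62 and the protease gene Adamts7 at 0.68. Npy itself was at 1.30 and 5.26 in the pineal gland, 3.30 in the subfornical organ, 0.681 in the subcommissural organ, 4.13 in the ependyma and 11.1 in total brain. Npy fell in the pineal gland by 2.08 on the log2 scale (limma adjusted p = 0.021), although its arrays differed widely. Npy2r and Npy5r, the other main receptors in brain, stayed under the pooled median on every array, with highest values of 0.773 and 0.657.

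The remaining list, receptors and peptides of other blood-borne signals, had 20 of 27 genes on the array. In pineal gland against total brain 11 were measured, with 1 higher and none lower, beside 7.72% and 16.3% of all genes. The one was Avpr1a, a vasopressin receptor gene, at 8.59 and 3.36 in the pineal gland and 0.580 in total brain, at least 5.11-fold higher (limma adjusted p = 0.00010). In the subfornical organ Avpr1a was at 0.535. Oxt, the oxytocin gene, was at 317 in the ependyma and at most 0.655 on any other array. Nppa, the atrial natriuretic peptide gene, was at 0.293 in the subfornical organ against 1.59 in total brain, which counted as lower with a bound of 1.51-fold.

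Read as a set, the 8 genes had no single direction. In pineal gland against total brain all 8 were measured, and limma called 2 higher, Scn7a and Aplnr, and 4 lower, Ace, Ramp1, Ramp3 and Npy1r. Over all 9077 measured genes 7.72% were called higher and 16.3% lower. Scn7a and Ramp1 kept their calls under all alternatives that gave a test. In pineal gland against subfornical organ 1 of 8, Scn7a, was called higher and 3, Ace, Aplnr and Ramp1, were called lower, beside 7.05% and 13.8% of 9001 genes. The fit had 1 residual degree of freedom, from the pineal gland pair, and gave every gene the same standard error of 0.73. A call was therefore in effect a log2 difference of at least 1.83 or 1.86, with the single array of the other tissue taken to scatter as the pair did.

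**Figure D5:**
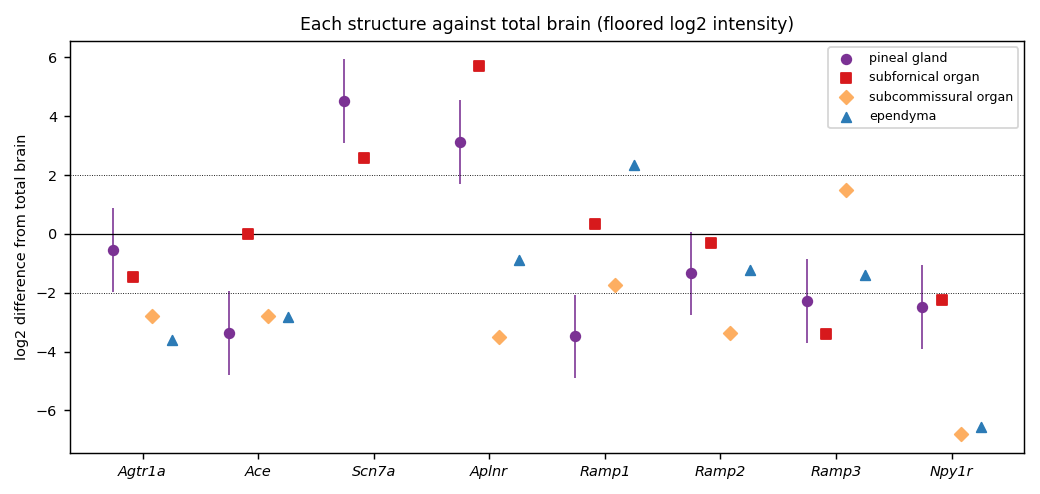
Difference from total brain (log2, floored intensity) of each of the 8 genes in the 4 dissected tissues, with the 95% interval of limma for the pineal gland and single arrays with no interval for the others. Dotted lines mark 4-fold; all 4 tissues share the 1 total brain array, and Scn7a has no point in the subcommissural organ and the ependyma because it was not measured there.

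With 1 array on each side there was no test, and 4-fold was the measure. In subfornical organ against total brain 2 of 8 were higher, Aplnr and Scn7a, and 2 lower, Ramp3 and Npy1r, beside 7.23% and 9.76% of 9172 genes, and the bound for Scn7a was under 4-fold. In subcommissural organ against total brain none of 7 measured was higher and 5 were lower, Agtr1a, Ace, Aplnr, Ramp2 and Npy1r, beside 8.76% and 14.9% of 9126 genes, and the bound for Aplnr, 3.17-fold, was under 4-fold. In ependyma against total brain 1 of 7, Ramp1, was higher and 3, Agtr1a, Ace and Npy1r, were lower, beside 7.47% and 9.51% of 9113 genes. These comparisons and that of the pineal gland share the 1 total brain array, so a value on it moves all of them. On the scale of log2 of the value plus 1, which shrinks dim genes, Scn7a in the subfornical organ came to 1.49, and Agtr1a and Aplnr in the subcommissural organ to -1.83 and -1.74, all short of 4-fold.

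The subfornical organ was then set against both ciliated linings. Against the ependyma 5 of 8 were at least 4-fold higher, Agtr1a, Ace, Scn7a, Aplnr and Npy1r, and 2 were lower, Ramp1 and Ramp3, beside 6.88% and 6.75% of 9053 genes. The bounds for Agtr1a, Scn7a and Ramp3, at 1.86-fold, 3.25-fold and 3.27-fold, were under 4-fold. The median log2 difference of the 8 was 2.49, against 0.13 over all genes. Against the subcommissural organ 6 were higher, Ace, Scn7a, Aplnr, Ramp1, Ramp2 and Npy1r, and Ramp3 was lower, beside 11.8% and 7.65% of 9040 genes, and the bound for Scn7a was again 3.25-fold. The median was 2.92, against 0.06 over all genes. Because the 8 were chosen with earlier results of these data known, these counts and medians cannot show an excess over all genes. On the scale of log2 of the value plus 1, Agtr1a, Ramp1 and Ramp3 against the ependyma came to 1.04, -1.96 and -1.26, and Scn7a and Ramp1 against the subcommissural organ to 1.95 and 1.87, which were short of 4-fold. With probes averaged, Npy1r against the ependyma was 1.42 and Ace against the subcommissural organ 1.94. Other cell types moved in these comparisons as well, since 8 of 8 oligodendrocyte genes were at least 4-fold higher in the subfornical organ than in either lining, and 5 of 11 mural cell and fibroblast genes were higher than in the ependyma. Against the subcommissural organ 7 of 8 astrocyte genes and 6 of 8 microglia genes were higher, and 5 of 6 motile cilia genes were lower against each lining. The subfornical organ held motile cilia RNA too, with a summed level of 308 against 69.4 in total brain. Of 6 measured cilia genes 3 were at least 4-fold higher there than in total brain, beside 7.23% of all genes. The part of these cell types in the set's differences was not tested.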

How the data were processed

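In the deposited table each probe had an intensity for each array, not log-transformed. How the authors corrected background and scaled the arrays is not given in the sources used here, and array medians near 1 show a common centre. Per the labels, the RNA went through repeated in vitro transcription before labelling, which can favour 3' ends and so dim probes that lie far from them. Entries of -9999 were taken as missing, which left 34963 of 35129 probes complete. The platform annotation gave 1 symbol for 16865 probes and several for 165, and 18099 were unlisted. Of the probes with 1 symbol, 16836 carried a gene identifier found in the RefSeq gene table.

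Values were floored at the pooled 5th percentile and log2 taken, with no further scaling. Each gene was represented by its brightest probe, by the mean over arrays. Comparisons of the pineal gland used limma 3.58.1 in R 4.3.3 (lmFit, eBayes, two-sided, a mean per tissue over all 6 arrays, Benjamini-Hochberg over all measured genes, adjusted p under 0.05). The code was also run on simulated data in which every array had a common spread taken from the pineal gland pair. That run cannot check how the single arrays scatter. Single arrays were compared at 4-fold. Alternatives were quantile normalization, a floor at the 1st percentile, log2 of the value plus 1, no filter, a filter at the 75th percentile, the mean over probes, an intensity trend in limma, a bound at the 25th percentile and 1 pineal gland array left out. The count at 4-fold with 1 array left out was added after seeing the data.

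The 8 genes and the gene lists were chosen with earlier results of these data known. Named genes were the 8, the listed pathway genes called in pineal gland against total brain or at least 4-fold different in the subfornical organ against total brain or ependyma, direct partners, and the 3 genes nearest in centred log2 profile to each of the 8. Agtr1b, Trpv1, Trpv2, Slc9a4 and Scnn1a were named after their values were seen. Promoters were matched by symbol for 6 of the 8 genes.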

Additional observations from a re-analysis of the deposited data

How the results depend on the processing

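Of 353 recomputed log2 differences of the 8 genes, 16 pineal gland calls were lost and 32 untested values moved by more than 1 standard deviation of the pineal gland pair. The sign turned in 3, none of them called: Npy1r in pineal gland against subfornical organ went from -0.23 to 0.0050 with probes averaged and to 0.36 by the first pineal gland array alone, and Ace in subfornical organ against total brain, near 0, went to 0.34 after quantile normalization. Genes called by limma fell from 2177 to 1234 after quantile normalization and to 1018 without the filter in pineal gland against total brain, and from 1881 to 1047 and 635 against the subfornical organ. Quantile normalization also raised the share of calls that were higher from 32.2% to 47.2% and from 33.8% to 44.6%, and from 44.0% to 56.1% in ependyma against total brain. It moved the median of all genes in pineal gland against total brain from -0.45 to 0.02. With log2 of the value plus 1, which shrinks dim genes, the 4-fold counts fell from 1558 to 811 in subfornical organ, 2163 to 1307 in subcommissural organ and 1548 to 778 in ependyma against total brain, and from 1234 to 553 and 1757 to 940 in subfornical organ against ependyma and subcommissural organ. The filter at the 75th percentile, which tests fewer genes, left 875, 1423, 887, 626 and 1052 in the same order. The causes were not tested beyond this. No paired analysis was possible because only the pineal gland arrays carry replicate numbers. The fit with 1 pineal gland array left out has no residual degree of freedom, so it gives values without a test. Values under the pooled median cannot be told from background, so differences between dim tissues have no order.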
